A study of Mus musculus with 3 samples.

Results

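The regions described here are Tcf1 peaks that conventional CD4 T cells and regulatory T cells (Treg cells) have in common and that lie inside gene bodies, away from the ends of genes. They were chosen by position: a peak of the conventional list on chromosomes 1 to 19 was taken if at least 1 bp of it lay in a Treg peak, and if it had its midpoint inside a RefSeq gene span more than 1 kb from every gene end. This left 570 of the 4462 conventional peaks on these chromosomes, or 12.8%, and 29.9% of the 1905 that overlapped a Treg peak. The deposited lists hold 4519 conventional and 3402 Treg peaks over all chromosomes.

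Both libraries came from the spleen of wild type Foxp3-Cre-GFP mice aged 8 to 10 weeks, a strain in which cells that express the Treg factor Foxp3 carry Cre and GFP. Conventional cells were sorted as TCRb+ CD4+ CD25- Foxp3-Cre-GFP- and Treg cells as TCRb+ CD4+ CD25+ Foxp3-Cre-GFP+, and chromatin was precipitated with an antiserum against Tcf1. The tissue label of the conventional sample calls the cells effector CD4 T cells, while its sort is CD25 negative. The study also holds a library of Tcf1-deficient CD4 T cells from CD4-Cre+ Tcf1 fl/fl mice, which was not analysed here. Whether it was used to call or filter the lists is not stated. It is therefore unknown if signal also seen without Tcf1 was removed from them. Each cell type had 1 library, and no label says whether it pooled mice. Intervals below are therefore 95% intervals for counting error only, and no difference between cell types was tested. The lists give positions alone, so the identity of the cells could not be checked against expressed markers.

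Tcf1, encoded by Tcf7, is an HMG box factor that binds DNA at a short TCF/LEF core, recruits beta-catenin or Tle corepressors, and acts downstream of Wnt signals. In T cells it is known for its part in thymic development, in the naive and memory state, and in the choice between helper fates. Peaks inside gene bodies can mark enhancers within introns, and they can also mark internal promoters, since many genes start at more than 1 place.

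Part of these peaks lay at or near a listed transcription start in spite of the 1 kb rule. The rule measures from the ends of the whole gene span, and RefSeq lists further starts inside many spans. Of the 555 members on chromosomes with listed starts, 76 (13.7%, interval 10.9 to 16.8) overlapped a 300-base window around a listed start. Of unshared gene-body peaks, 96 of 800 conventional peaks and 8.13% of Treg peaks did so, against 71.1% of shared peaks at gene ends. A further view of the same point is distance: 98 members (17.7%) had their midpoint within 1 kb of a listed start, and 283 (51.0%) were more than 10 kb from any. The table lists no start for the hosts of 105 of the 555, whose distance runs to the start of another gene, and 81.0% of these were over 10 kb away, against 44.0% of the 450 whose host has a listed start. The term gene-body peak thus holds for the place within the span, and 76 members overlapped the window of an internal start. Internal means only inside the span. Such a start may be the main start of its gene, and which start the cells use was not measured. Some overlaps were small, such as 2 bases in Pde4dip, and in Lef1 the start itself lay outside both peaks. The count of overlaps is a lower bound because the table lists starts for 79.6% of protein-coding genes.

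For the members that overlapped a start window, the sequence before the start could be shown, from the RefSeq promoter table of GRCm38.p6, the assembly of mm10. Each run below is the 250 bases before a listed start, 5′ to 3′ on the strand of the gene, and capitals mark the TCF/LEF core CTTTGA or its reverse complement. Axin2 and Nr4a1 are shown as examples of genes of known pathways with a listed start inside the span under a peak of both lists. Rnf44, Dcaf1, Zfp445, Cep70 and Fhit are shown as examples of the 10 genes with a core before the start inside both peaks. Except for Axin2, Nr4a1 and Rnf44 they were picked after their values were seen.
Axin2: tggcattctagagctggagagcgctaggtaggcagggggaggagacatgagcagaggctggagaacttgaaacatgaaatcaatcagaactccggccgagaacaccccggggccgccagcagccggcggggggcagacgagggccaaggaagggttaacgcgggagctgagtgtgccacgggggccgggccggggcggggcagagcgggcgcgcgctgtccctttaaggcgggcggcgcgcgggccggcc
Nr4a1: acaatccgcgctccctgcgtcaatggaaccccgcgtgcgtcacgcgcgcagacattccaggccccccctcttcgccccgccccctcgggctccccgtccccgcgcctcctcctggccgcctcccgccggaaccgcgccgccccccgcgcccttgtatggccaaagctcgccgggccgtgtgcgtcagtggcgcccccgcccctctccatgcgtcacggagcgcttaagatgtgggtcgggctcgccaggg
Rnf44: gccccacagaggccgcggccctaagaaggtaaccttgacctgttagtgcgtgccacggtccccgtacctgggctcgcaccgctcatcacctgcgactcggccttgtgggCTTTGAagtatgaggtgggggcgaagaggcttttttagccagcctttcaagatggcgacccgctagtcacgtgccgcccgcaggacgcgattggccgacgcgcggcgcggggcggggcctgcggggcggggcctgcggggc
Dcaf1: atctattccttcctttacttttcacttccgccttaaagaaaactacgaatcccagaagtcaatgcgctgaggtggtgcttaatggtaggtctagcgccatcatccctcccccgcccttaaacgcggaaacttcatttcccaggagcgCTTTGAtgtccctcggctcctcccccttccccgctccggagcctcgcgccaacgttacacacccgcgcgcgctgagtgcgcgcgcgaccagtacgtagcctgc
Zfp445: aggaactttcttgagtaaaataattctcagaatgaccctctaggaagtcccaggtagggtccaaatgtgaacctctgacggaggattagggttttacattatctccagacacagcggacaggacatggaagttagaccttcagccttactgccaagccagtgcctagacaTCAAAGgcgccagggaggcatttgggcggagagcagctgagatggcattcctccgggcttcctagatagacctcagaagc
Cep70: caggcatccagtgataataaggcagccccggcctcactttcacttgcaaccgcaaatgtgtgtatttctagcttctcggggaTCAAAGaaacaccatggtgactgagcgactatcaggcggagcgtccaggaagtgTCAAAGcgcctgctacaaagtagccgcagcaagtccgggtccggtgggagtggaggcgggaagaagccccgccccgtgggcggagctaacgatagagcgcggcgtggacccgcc
Fhit: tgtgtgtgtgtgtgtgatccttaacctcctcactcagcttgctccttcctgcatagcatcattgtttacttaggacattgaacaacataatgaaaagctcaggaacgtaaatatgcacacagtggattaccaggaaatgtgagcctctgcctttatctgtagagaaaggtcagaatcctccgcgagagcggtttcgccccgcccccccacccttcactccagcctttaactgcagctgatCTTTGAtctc

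Axin2 encodes a scaffold of the beta-catenin destruction complex and is a textbook target of Wnt signals. Its sequence covers chr11:108920099-108920348 on the plus strand, is 69.2% G and C, and holds no CTTTGA. The Nr4a1 sequence, at chr15:101266596-101266845 on the plus strand, is 74.4% G and C and holds none either. Nr4a1 encodes Nur77, an orphan nuclear receptor induced by antigen receptor signals. The absence of these letters says only that they are not in this window.

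Rnf44, a RING finger gene, had its core at -141 to -136 from the start, in chr13:54687809-54688058 on the minus strand. Dcaf1, a substrate receptor of Cul4 ubiquitin ligases, had it at -103 to -98, in chr9:106821674-106821923 on the plus strand. In Zfp445, a zinc finger gene at chr9:122866007-122866256 on the minus strand, it lay at -80 to -75 on the other strand. Cep70, which encodes a centrosome protein, had 2 cores on the other strand at chr9:99243091-99243340, at -168 to -163 and at -114 to -109. In Fhit, at chr14:10453459-10453708 on the minus strand, the core lay at -10 to -5 and was followed by TC. The cores thus stood at unlike distances, from close to the start to the outer part of the window.

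The 76 members overlapped 90 start windows, some by a few bases only, and words were counted in each whole window. Some windows of the same gene overlap each other, as in Smim14, and so hold the same bases. The intervals for words treat windows as independent, which these are not. Before the start and inside the conventional peak, CTTTGA lay on either strand in 10 members. Over all 90 windows, 17 held CTTTGA on either strand, or 18.9% (interval 11.4 to 28.5). The share was 15.9% of all 31396 listed windows on the same chromosomes, 18.0% under shared peaks at gene ends and 16.1% under unshared conventional gene-body peaks, all inside the members' interval. It was lower under unshared conventional peaks at gene ends, at 10.8% (interval 9.15 to 12.7), and under unshared Treg gene-body peaks, at 10.3% of 39 windows (interval 2.87 to 24.2), and both intervals met that of the members. With 200-base windows the share was 11.1% for the members and 10.9% for all windows. The longer word CTTTGAA, which contains the first, was in 6.67% of the members' windows and 5.09% of all windows. Other words were AGGGGGC of the Ctcf core, in 22.2% against 10.7% of all windows, the E box CAGCTG, in 10.0% against 16.3%, and the GATA word AGATAA, in 5.56% against 11.2%. The ETS word CAGGAAG was in 11.1% against 13.4%, the Runx word TGTGGTT in 4.44% against 5.32%, and the AP-1 word TGAGTCA in 2.22% against 5.26%. The members' windows were richer in G and C, with a median of 64.7% against 53.0% over all windows, and the windows under shared peaks at gene ends were at 64.0%, so word shares against all windows compare unlike base compositions. Sequence of the members away from listed starts was not used here.

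In the conventional list, the share of peaks found in both cell types was close inside and outside gene bodies. Of 1392 conventional gene-body peaks, 40.9% (interval 38.4 to 43.6) overlapped a Treg peak, beside 43.0% at gene ends, 45.2% between genes and 42.7% over chromosomes 1 to 19. Read from the Treg list, 54.7% of 1043 gene-body peaks (interval 51.6 to 57.7) overlapped a conventional peak, below the 64.6% at gene ends and above the 45.8% between genes. These shares belong to the rule that chose the members and are given as a description.

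**Figure D1:**
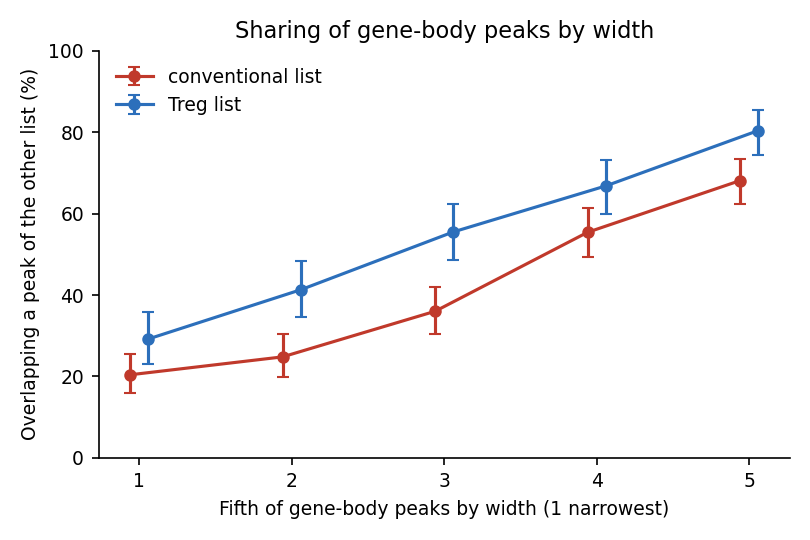
Share of gene-body peaks that overlap a peak of the other list (vertical axis, percent) in 5 width classes of near equal size (horizontal axis, 1 narrowest), for the conventional list (red, 1392 peaks) and the Treg list (blue, 1043 peaks). Bars are exact 95% Clopper-Pearson intervals. The share climbs from 20.4% to 68.1% in the conventional list and from 29.2% to 80.4% in the Treg list.

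Wide peaks were shared more often than narrow ones in both lists. In the narrowest of 5 classes of conventional gene-body peaks, 279 to 329 bp wide, 20.4% (interval 15.9 to 25.6) were shared. In the widest class, 572 to 1503 bp, 68.1% (interval 62.3 to 73.5) were shared. In the Treg list the share went from 29.2% (interval 23.1 to 35.9) to 80.4% (interval 74.3 to 85.5). Width stood in for strength here because the lists carry no height or score, and a wider peak also has more bases with which to overlap another.

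The members were 279 to 1503 bp wide in the conventional list, with a median of 495 bp (interval 474 to 514). Unshared conventional gene-body peaks had a median of 374.5 bp (interval 366 to 384). Shared peaks at gene ends, at 508 bp (interval 494 to 522), were close to the members, and those between genes had 465 bp (interval 445 to 493). The Treg partners were 241 to 2753 bp wide with a median of 400 bp (interval 385 to 412), against 318 bp for unshared Treg gene-body peaks. The conventional peak was the wider of the pair in 411 members, or 72.1%, with a median ratio of 1.18. The Treg list as a whole was also narrower, with a median of 365.5 bp against 428 bp, so the ratio cannot be told apart from how each list was called.

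The midpoints of a member and its partner were a median of 48 bp apart (interval 43 to 53), and 446 members (78.2%) were within 100 bp. The rule asked for overlap, which limits how far apart the midpoints can lie, so these distances describe the members and support nothing further. The corresponding median was 73 bp for shared peaks at gene ends (interval 66 to 78) and 44 bp for those between genes (interval 37 to 51). In 250 members the Treg peak lay wholly inside the conventional peak, in 64 the reverse held, and in 256 they overlapped in part. The least overlap was in Zfp36l2, which encodes a protein that promotes mRNA decay: its peaks of 712 and 349 bp shared 36 bp. Next was Sesn1, a p53 target that restrains mTOR, with 98 bp. The Treg partner was itself in a gene body in 559 cases and within 1 kb of a gene end in 11.

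**Figure D2:**
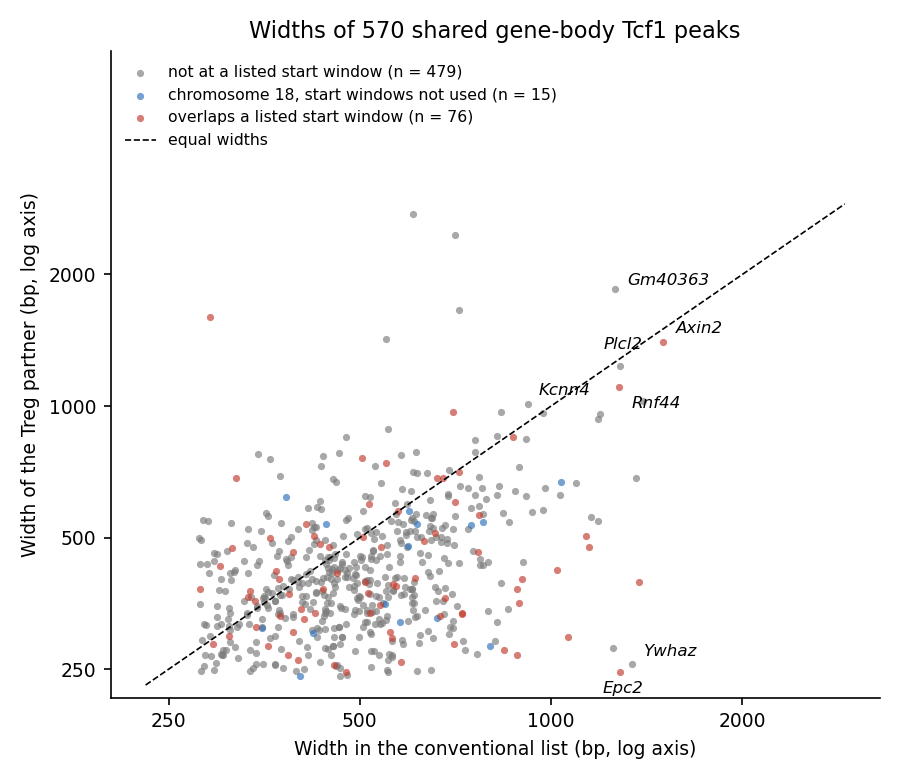
Width of each of the 570 members in the conventional list (horizontal, bp, log axis) against the width of its Treg partner (vertical, bp, log axis). Red points overlap a listed start window, blue points lie on chromosome 18, where start windows were not used, grey points are the others, and the dashed line marks equal widths. Axin2 is the widest conventional member at 1503 bp, and Ywhaz and Epc2 lie at the lower right.

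The member with the best sum of width ranks over both lists was in Axin2, at chr11:108920073-108921575, with 1503 bp in conventional cells and 1403 bp in Treg cells. The midpoints differed by 8 bp, and the peak lay 2996 bp from the 5′ end of the span. Plcl2, which encodes a phospholipase C-like protein, held a peak of 1286 and 1237 bp at chr17:50631171-50632456, with midpoints 10 bp apart. Rnf44 followed with 1279 and 1103 bp, and Pde4d, a cAMP phosphodiesterase gene, with 1193 and 959 bp. Arid5b, a DNA-binding chromatin regulator, had 970 and 965 bp with midpoints 327 bp apart. Kcnn4 encodes the calcium-activated potassium channel that sustains calcium entry in T cells, and its wider member had 921 and 1012 bp.

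A few members differed strongly in width between the lists. The conventional peak was more than 2 times as wide in 51 members and more than 4 times in 3, which were Ywhaz (1340 against 257 bp), Epc2 (1282 against 246 bp) and Actb (1253 against 280 bp). Ywhaz encodes a 14-3-3 protein, Epc2 a subunit of the NuA4 acetyltransferase complex, and Actb beta-actin. The Treg peak was more than 2 times as wide in 8 members, with the lowest ratio in Hnrnpul1, an RNA-binding protein gene, at 290 against 1596 bp. Epc2 and Hnrnpul1 both lay at listed start windows. No start is listed for Ywhaz or Actb, so whether their peaks lay at a start of the gene could not be seen. Genes of this paragraph were named after their values were seen, except Ywhaz and Actb.

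Of those 8 members, 4 stood in a single stretch of 81.1 kb at chr6:47663486-47744620, which held 6 members in Gm40367, Gm40365, Gm36327, Gm40363 and Gm52861, all predicted genes. It was the only run of 5 or more members spaced at most 60 kb apart. In this stretch the Treg list had 14 peaks and the conventional list 8, the reverse of the lists as a whole. All 6 members were wider in Treg cells, where they spanned 681 to 2753 bp, than in conventional cells, where they spanned 454 to 1259 bp. RefSeq places the 4.5S RNA gene Rn4.5s at chr6:47654921-47655094, to the left of the stretch. The run was looked for after the data were seen, and without it the median widths of the remaining 564 members were 493.5 and 398 bp.

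**Figure D3:**
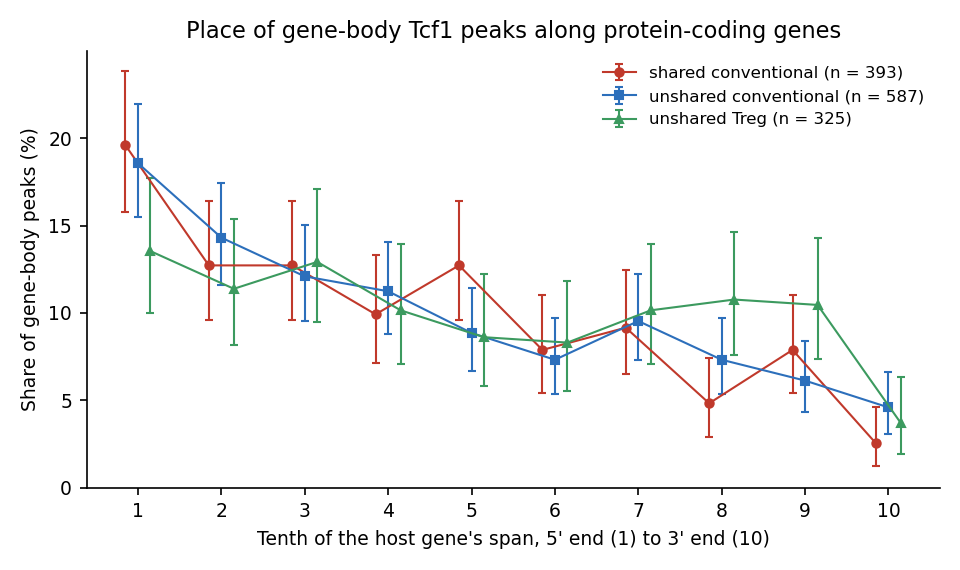
Share of gene-body peaks (vertical, percent) in 10 equal bins of the span of the host gene, from the 5′ end (1) to the 3′ end (10), for protein-coding hosts with a listed strand: 393 members (red), 587 unshared conventional peaks (blue) and 325 unshared Treg peaks (green). Bars are exact 95% Clopper-Pearson intervals. The first bin holds 19.6% of the members and the last bin 2.54%.

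Along the gene, members lay toward the 5′ side. Of 393 members in a protein-coding host with a listed strand, 266 (67.7%, interval 62.8 to 72.3) were nearer the 5′ end. Unshared conventional peaks had 65.1% (interval 61.1 to 68.9) and unshared Treg peaks 56.6% (interval 51.0 to 62.1). With peaks at start windows left out, the shares were 63.0% (interval 57.5 to 68.3), 61.0% and 52.8% (interval 46.8 to 58.7). The intervals of members and unshared Treg peaks met there. Peaks are not replicates, and no difference between these classes was tested. The first of 10 equal bins of the span held 19.6% of the members, or 12.9% away from start windows, and the last bin 2.54%. The peaks thus thinned out toward the 3′ end.

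Distances to the nearest gene end ran from 1014 to 194000 bp with a median of 6981 bp (interval 6054 to 8002). The nearest end was under 2 kb away for 122 members (21.4%) and over 50 kb away for 42 (7.37%). The deepest was in Slc9a9, a sodium and proton exchanger gene, at 194000 bp, with peaks of 307 and 378 bp. Celf2, an RNA-binding splicing regulator, held members at 167801 and 166679 bp. Bach2, a repressor that keeps T cells in a naive or memory state, had one at 149665 bp, of 302 and 271 bp. Rad51b, a DNA repair gene, had a wider one of 840 and 569 bp at 142581 bp. The nearest listed start was closer for Celf2, at 14167 and 15289 bp, and for Bach2, at 29357 bp. For Slc9a9 and Rad51b it was 275998 and 149087 bp away. At the edge of the rule, C430002N11Rik and Spast were just inside at 1014 and 1019 bp, while Zbtb2 and Tfap4 fell just outside at 993 and 991 bp. The Spast midpoint lay 45 bp from a listed start.

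Most hosts were protein-coding genes. A protein-coding span held 499 members (87.5%), and 68 (11.9%) lay in lncRNA spans alone. The remaining 3 were in the Tcrb locus, a pseudogene and a miscellaneous RNA. Among the widest noncoding cases was Gm30217, on the 5′ side of Tcf7, with 1186 and 934 bp at chr11:52313680-52314865. Gm36603, on the 5′ side of Lef1, had 889 and 725 bp at chr3:131105615-131106503. Pvt1, the lncRNA gene beside Myc, held 2 members of 687 and 497 bp and of 670 and 489 bp. Gm36603 and Pvt1 were named after their values were seen.

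In all, 463 protein-coding genes held a member, or 2.24% of the 20665 on chromosomes 1 to 19. Among genes with spans over 50 kb the share was 5.5%. Longer genes held one more often, from 0.531% of genes up to 10 kb to 7.3% of those over 200 kb, yet per length the order was reversed, from 2.19 to 0.199 members per Mb of span. A single member was the rule, in 426 genes, and 37 genes held more. Another conventional or Treg peak within the span or 1 kb of it was absent in 237 hosts (51.2%), while 43 also had a shared peak at a gene end.

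**Figure D4:**
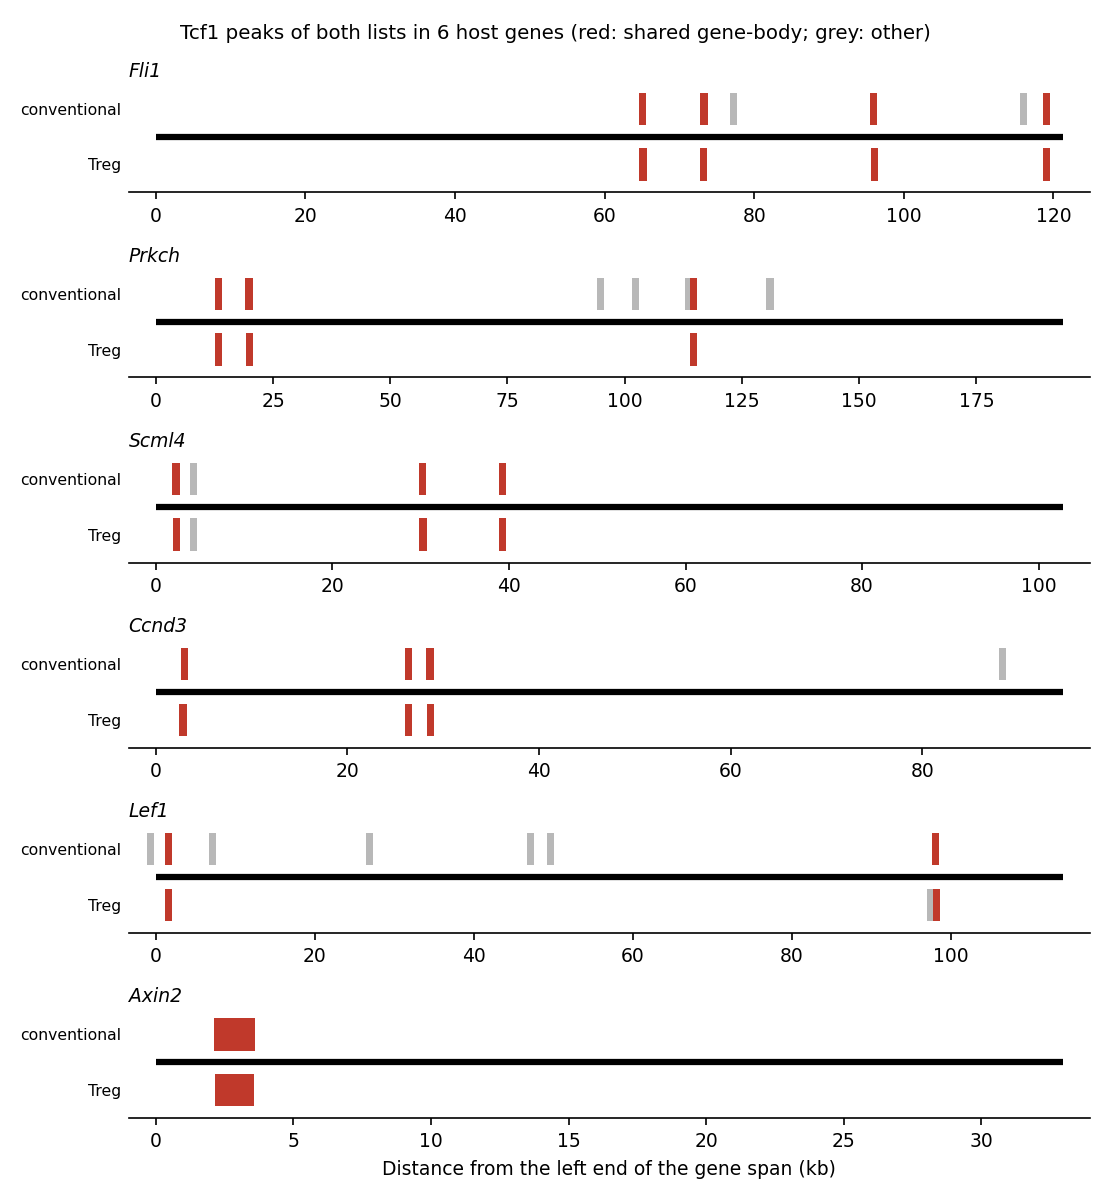
Peaks of the conventional list (above the line) and the Treg list (below) along the spans of Fli1, Prkch, Scml4, Ccnd3, Lef1 and Axin2, in kb from the left end of each span. Red boxes are members and their partners, grey boxes other peaks, and boxes narrower than 0.8% of a span are drawn at that width. Fli1 shows 4 red pairs and Lef1 grey conventional boxes with no Treg box below.

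Fli1 encodes an ETS factor of blood cells and held the most members, 4 in a span of 121 kb. They were 401, 504, 640 and 518 bp wide in the conventional list and 385, 451, 456 and 372 bp in the Treg list. The midpoints differed by 27 to 96 bp, and 2 further conventional peaks there had no Treg peak. Fli1 thus had every Treg peak of its span matched.

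Prkch, Scml4 and Ccnd3 held 3 members each. Prkch encodes protein kinase C eta, which acts in T cell receptor signalling, and its members had 428, 913 and 443 bp against 311, 621 and 339 bp in Treg cells. It also held 4 conventional peaks with no Treg peak. Scml4, a Polycomb-like gene, had members of 612, 356 and 718 bp against 565, 381 and 658 bp. Ccnd3 encodes cyclin D3, which drives entry into S phase in lymphocytes, with 433, 525 and 502 bp against 608, 467 and 444 bp. Of these 9 members, 7 were wider in the conventional list. Where a gene held several members, neighbours were a median of 14488 bp apart (656 to 127425 bp over 42 gaps).

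**Figure D5:**
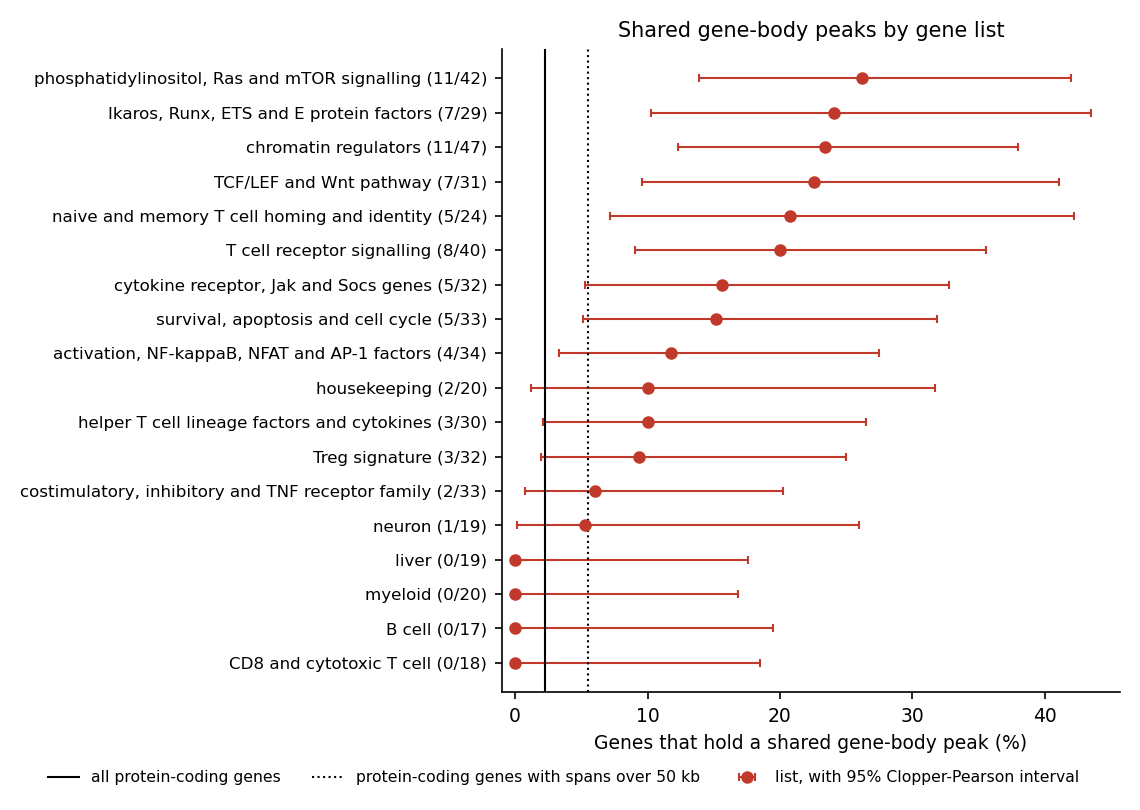
Share of the genes of each list shown that hold at least 1 member (horizontal, percent), with exact 95% Clopper-Pearson intervals and the counts beside each name. The solid line marks all protein-coding genes (2.24%) and the dotted line those with spans over 50 kb (5.5%). Lists of signalling, transcription factor and chromatin genes are at the top, and 4 lists for other cell types are at 0.

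Of 536 genes matched from 19 lists of pathways and cell types, 79 held a member. The lists were drawn up with earlier results of these data known, they favour T cell genes and differ in gene length, and 25 genes are in more than 1, so the shares describe the lists and are not independent evidence. Shares beside the 2.24% of all protein-coding genes ranged from 26.2% for phosphatidylinositol, Ras and mTOR signalling to 0 for the B cell (17 genes), myeloid (20), CD8 and cytotoxic T cell (18) and liver (19) lists. A count of 0 in lists of this size allows up to 19.5%, 16.8%, 18.5% and 17.6%. Their median spans were short, at 14.9, 10.8, 7.64 and 11.2 kb. Of all protein-coding genes, 0.531% of those up to 10 kb and 1.33% of those of 10 to 20 kb held one. Of the 19 neuron genes, whose median span is 428 kb, Dlg4 held one, a share of 5.26% (interval 0.133 to 26.0). This was near the 5.5% of all protein-coding genes with spans over 50 kb.

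In the TCF/LEF and Wnt list, 7 of 31 genes (22.6%, interval 9.59 to 41.1) held a member, and 5 of the 17 with spans over 50 kb. Lef1, the closest relative of Tcf7, had one of 707 and 604 bp near its 5′ end, at chr3:131111909-131112615. The midpoint of this member lay 529 bp before a listed start. Its conventional peak overlapped 75 bases of the start window, and neither peak reached the start. The other Lef1 member had 621 and 461 bp, at chr3:131208357-131208977. Lef1 held 4 further gene-body peaks in the conventional list alone and 1 in the Treg list alone. Tcf7l2, another TCF factor, had 758 and 625 bp at chr19:55792450-55793207, and Tnik, a kinase that acts with TCF factors, 932 and 572 bp. Besides the factors, the feedback side of the pathway was represented. Axin2 held the member widest in the conventional list, and Rnf43 and Znrf3, which remove Frizzled receptors from the surface, had 591 and 516 bp and 580 and 486 bp. Tcf7 itself had a narrow member of 295 bp within a Treg peak of 462 bp, 7737 bp from its 5′ end. Rnf43, Znrf3 and Tcf7 were named after their values were seen.

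T cell receptor signalling had 8 of 40 genes (interval 9.05 to 35.6%). Zap70, the kinase recruited to the receptor, held a peak of 758 and 786 bp at chr1:36766827-36767584. Ptprc, the phosphatase CD45, held one of 646 and 555 bp with midpoints 3 bp apart. Grap2, an adaptor that links the receptor to Slp76, had 573 and 406 bp. Ptpn22, a phosphatase that dampens the signal, had the widest conventional peak of the list, 1149 bp, beside a Treg peak of 476 bp. This member overlapped listed start windows, with its midpoint 95 bp from a start. The list thus held both activating and inhibitory steps of the pathway.

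Phosphatidylinositol, Ras and mTOR signalling had 11 of 42 genes (26.2%, interval 13.9 to 42.0), all of them among its 26 genes with spans over 50 kb. Prkch led with 3 members. Inpp5d, the lipid phosphatase SHIP1, had 748 and 584 bp, and Sgk1, a kinase downstream of mTORC2, had 615 and 247 bp. Map4k4, a kinase upstream of JNK, was wider in Treg cells, with 606 and 705 bp.

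Among transcription factors, the Ikaros, Runx, ETS and E protein list had 7 of 29 genes (24.1%, interval 10.3 to 43.5) with 11 members. Runx1, needed for T cell development, held 2 members of 791 and 455 bp against 614 and 310 bp in Treg cells. Ikzf1, which encodes Ikaros, had 641 and 305 bp, and Bcl11b, which fixes T lineage identity, had 574 and 543 bp with midpoints 22 bp apart. In the naive and memory list, 5 of 24 genes held one. Itga6, an integrin chain, had 688 and 624 bp, and Foxp1, which maintains quiescence, 657 and 386 bp. Ets1 and Bach2 had narrower members, of 318 and 302 bp.

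Chromatin regulators had 11 of 47 genes (23.4%, interval 12.3 to 38.0), with 8 of the 36 that span over 50 kb. Chd2, a nucleosome remodeller, held 2 members of 588 and 601 bp against 385 and 549 bp. Jarid2, a cofactor of Polycomb complex PRC2, held 2 of 462 and 443 bp against 421 and 435 bp, with midpoints 13 and 3 bp apart. Both Arid1a and Arid1b, subunits of the BAF remodeller, had one, of 680 and 534 bp and of 760 and 838 bp.

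The cytokine receptor, Jak and Socs list had 5 of 32 genes with 7 members. Smad7, the inhibitor of TGF-beta signalling, held 2 members of 781 and 1038 bp against 544 and 670 bp. Smad3, a signal transducer of the same pathway, held 2 of 782 and 435 bp against 566 and 581 bp. Il2ra, which encodes CD25, the marker used in the sort, had a member of 599 and 381 bp at chr2:11653255-11653853, 10762 bp from its 5′ end. The peak at Il2ra was therefore in the list of CD25 negative as well as CD25 positive cells. Il21r, the interleukin 21 receptor, had 672 and 502 bp.

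The Treg signature had 3 of 32 genes (9.38%): Il2ra, Ikzf4 and Prdm1. Ikzf4, the Treg factor Eos, had 281 bp in conventional and 495 bp in Treg cells. Prdm1, which encodes the repressor Blimp-1, had 2 members of 641 and 579 bp against 418 and 440 bp, with midpoints 1 and 12 bp apart. Prdm1 was also among the 3 of 30 helper lineage genes, beside Stat5b, of 614 and 331 bp, and Rora, of 284 and 318 bp.

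In the remaining lists described here the share of genes with a member ran from 6.06% to 15.2%. Survival and cell cycle had 5 of 33, with Bbc3, the proapoptotic gene Puma, at 890 and 354 bp, Cflar, an inhibitor of caspase 8, at 538 and 318 bp, and Btg2, an antiproliferative gene, at 474 and 407 bp. The Bbc3 member overlapped listed start windows, with its midpoint 326 bp from a start. Activation, NF-kappaB, NFAT and AP-1 factors had 4 of 34: Jund, at 1187 and 546 bp, Nr4a1, at 675 and 683 bp, Irf4, at 368 and 358 bp, and Myc, at 313 and 540 bp. None of the 6 genes of that list with spans over 50 kb held one. Costimulatory, inhibitory and TNF receptor genes had 2 of 33, Tnfrsf1b at 823 and 627 bp and Slamf1 at 572 and 518 bp. Of the 20 housekeeping genes, Ywhaz with 2 members and Actb with 1 held any.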

How the data were processed

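Tcf1 binding was measured by chromatin immunoprecipitation and sequencing. Bowtie2 2.3.4.1, MACS2 2.1.1, FastQC and the mm10 build are listed in the submitters' processing notes, with no role given for each. The deposited lists give chromosome, start and end of each peak, with no other unit. The authors call them filtered, by a filter not stated here. Depth is unknown.

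Python 3.11.15 with numpy 2.4.6, pandas 2.3.3, scipy 1.17.1 and matplotlib 3.10.9 was used. Positions are 1-based. Overlap and placement steps were first tested on simulated intervals. Genes were spans of the RefSeq table of GRCm38.p6. Starts and their 300-base windows (250 bases before, 50 after) came from its promoter table, which held a start for 79.6% of protein-coding genes; start windows on chromosome 18 were not used, which left 555 members. Words were to be counted at peak midpoints; with no genome used, they were counted in start windows. Intervals are exact Clopper-Pearson for shares and binomial order statistics for medians. With 1 library per cell type no test was made. The members and gene lists were chosen with earlier results of these data known.

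Genes were named by rule: the 12 with the most members, hosts of the 10 members widest in both lists, up to 4 per list, the 6 members farthest from gene ends, and 2 on each side of each limit. Not every gene so taken is printed, and 1 list and some genes are not reported here.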

Additional observations from a re-analysis of the deposited data

How the results depend on the processing

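In all, 13 alternatives were run, 12 of them for the counts, widths, distances and hosts of the members, 4 for the gene lists and 1 (200-base windows) for the words. Of the 13, 2 (without peaks at start windows, without the dense run of chromosome 6) were chosen after seeing the data. Of 113 values, 97 moved by less than their interval (counts, by less than 1.5 times) and 16 by more. An overlap of at least 50% of both peaks gave a shared share of 35.6%, and the Treg list as the base 54.7%. A margin of 500 bp gave a median distance to a gene end of 4823 bp. A margin of 5 kb gave 332 peaks, 91.6% in protein-coding genes, a median distance of 15365.5 bp, 284 host genes and 19 with 2 or more. Protein-coding spans alone placed 100% in protein-coding genes by construction and a distance of 10137.5 bp. Peaks at or above the median width of each list gave 262 peaks, widths of 587.5 and 495 bp, 220 host genes and 16 with 2 or more. With 200-base windows, CTTTGA was in 11.1% of the members' windows and 10.9% of all. Apart from those set by construction (fewer peaks, other spans), the cause of these moves was not tested. The depth of the libraries is unknown, so a peak absent from 1 list may have been under its calling limit. No paired analysis was possible because each cell type has 1 library.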
